A study of Homo sapiens with 24 samples.

Results

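CENPE, the gene of the kinetochore motor CENP-E, was followed from its total RNA level down to its single introns and exons in colon carcinoma cells that had lost ERH. The gene was taken by its symbol: it is 1 of 62754 genes in the deposited transcript counts, 6 of the 252894 transcripts belong to it, and 51 of the 233113 introns in the intron retention files carry its name. It lies on the minus strand at chr4:103105349-103198445 (GRCh38), over 93097 bp, with no annotated gene overlapping it. Its 51 listed introns are the 48 introns of the 49-exon transcript, numbered here from the 5′ end, and 3 longer ones that span an exon (exons 4 to 6, 16 to 18 and 37 to 39).

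The cells were RKO, a human colon carcinoma line, carrying a Cas9 that doxycycline switches on. All groups received doxycycline at 100 ng/mL for 5 days. The guide sgERH targets ERH, a small protein tied to splicing and RNA export, and sgAAVS1 targets a safe-harbour locus and served as the control. Cells were then given DMSO or cycloheximide (CHX, an inhibitor of translation, at 25 µg/mL) for 4 hours, and poly(A)-enriched RNA of the nucleus and of the cytoplasm was sequenced, which makes 8 groups of 3 libraries. Cells carrying a guide were sorted in bulk, and in microscopy the study marked non-knockout cells within sgERH samples. The sgERH groups may thus hold cells with an intact ERH gene, in a share that is not given.

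CENP-E is a very large kinesin. An N-terminal motor domain walks towards microtubule plus ends, a long flexible coiled coil forms the middle, and the C-terminal part binds the kinetochore. The motor brings chromosomes that lie near the spindle poles to the metaphase plate and takes part in the spindle checkpoint together with the kinase BUBR1 (gene BUB1B). Its mRNA and protein build up in G2 and mitosis and are degraded as cells leave mitosis, so bulk CENPE RNA also depends on how many cells are in those phases. Here, as in any bulk sample, fewer cells of one kind and less RNA per cell cannot be told apart. No spike-in was used, so every level is relative to the other RNAs of the same fraction.

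The libraries held 43984260 to 79450333 estimated counts in the cytoplasm and 27849344 to 41798198 in the nucleus, and no pair of libraries was identical. Mitochondrially encoded mRNAs took 2.81 to 6.22% of counts in the cytoplasm and 0.338 to 0.750% in the nucleus, while the nuclear RNAs MALAT1 and NEAT1 were higher in the nucleus by 4.22 and 5.32 on the log2 scale. ERH RNA stood at 137, 158 and 152 CPM (counts scaled to 1000000 per library) in control cytoplasm and at 72.9, 86.9 and 59.4 CPM in sgERH cytoplasm with DMSO (log2 fold change -1.03 ± 0.11, SE). With CHX it differed by -0.72 ± 0.11 in the cytoplasm, and in the nucleus by -0.48 ± 0.16 with DMSO and by -0.12 ± 0.16 with CHX (adjusted p = 0.59). RNA need not be lost when a guide disrupts a reading frame, so this is a partial check of the labels. Of 9 colon epithelial markers, EPCAM, KRT8, KRT18 and CDX2 averaged at least 1 CPM, while CDH1, KRT19, KRT20, VIL1 and LGALS4 did not. Summed fibroblast, leukocyte and endothelial markers stayed at or under 0.658 CPM in the cytoplasm. In the nucleus they reached 5.54 CPM (mostly COL1A1), 16.03 CPM (LYZ in a single control library with CHX) and 0.890 CPM.

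CENPE was lower in sgERH cells in both fractions and with both treatments. The gene was singled out with this fall already known, so the size of the fall is given as a description. In the cytoplasm with DMSO, the 3 control libraries held 107, 101 and 78.8 CPM of CENPE and the 3 sgERH libraries 22.8, 18.6 and 17.01 CPM. The groups did not overlap, and the log2 fold change was -2.29 ± 0.12. Only 19 of 16130 genes tested had a lower value in that comparison, where 2.16% of genes were called lower (adjusted p at most 0.05 in edgeR's quasi-likelihood test and a log2 change of at least 1 in size, the limits the study set).

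With CHX, cytoplasmic CENPE was at 147, 135 and 142 CPM in control libraries and at 48.2, 47.3 and 39.7 CPM in sgERH libraries (-1.65 ± 0.11, with 64 of 16130 genes lower and 1.43% called lower). In the nucleus CENPE took a larger share of counts. There the control libraries with DMSO read 229, 211 and 164 CPM against 47.7, 50.6 and 50.7 CPM with sgERH (-2.02 ± 0.10, with 104 of 17330 genes lower and 1.73% called lower). Nuclei given CHX read 338, 305 and 326 CPM in control cells and 109, 125 and 109 CPM in sgERH cells (-1.50 ± 0.10, with 379 of 17330 genes lower and 3.68% called lower). In no setting did a control and an sgERH library overlap.

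**Figure D1:**
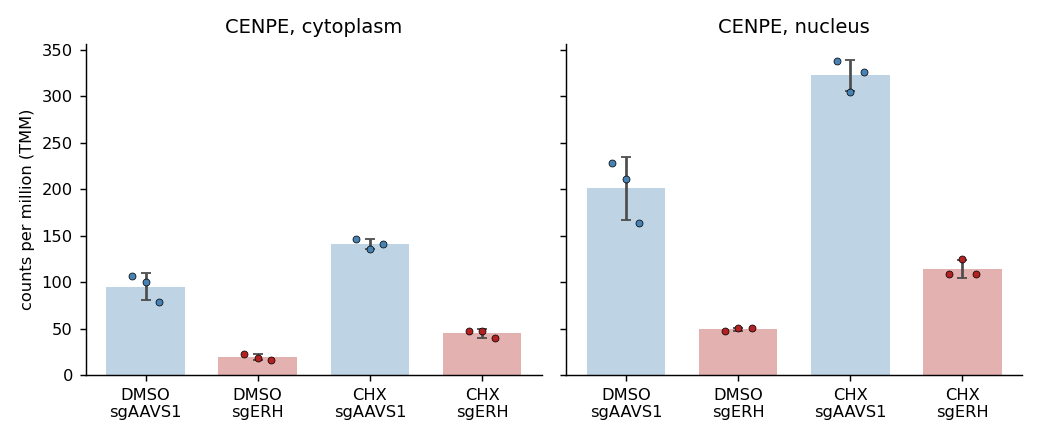
CENPE level (CPM, TMM scaling within each fraction) in the cytoplasm (left) and nucleus (right); bars are means of 3 libraries, error bars the SD, points single libraries, blue sgAAVS1 and red sgERH. Control nuclei with CHX stand highest (305 to 338 CPM) and sgERH cytoplasm with DMSO lowest (17.01 to 22.8 CPM).

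Per length of transcript (TPM, the authors' unit scaled to transcript length and library size), the groups were ordered by the share of CENPE in the RNA of their own fraction. Control nuclei were highest, at 70.9 to 86.9 TPM with CHX and 35.7 to 51.6 TPM with DMSO. They were followed by sgERH nuclei with CHX (29.1 to 31.2 TPM) and control cytoplasm with CHX (20.3 to 22.8 TPM). The next 3 groups overlapped with their neighbours: sgERH nuclei with DMSO at 11.8 to 15.1 TPM, control cytoplasm with DMSO at 9.82 to 13.1 TPM and sgERH cytoplasm with CHX at 9.59 to 11.5 TPM. The lowest group was sgERH cytoplasm with DMSO, at 2.87 to 4.71 TPM. The TPM of CENPE in sgERH nuclei with DMSO was thus near that in control cytoplasm with DMSO. These are shares of different RNA pools, so amounts in nucleus and cytoplasm cannot be compared by them.

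CENPE rose with CHX in both fractions and with both guides, and it rose more in sgERH cells. In control cells the rise was 0.56 ± 0.11 on the log2 scale in the cytoplasm (edgeR adjusted p = 0.000206) and 0.68 ± 0.10 in the nucleus (adjusted p = 1.12e-05). In sgERH cells it was 1.21 ± 0.12 in the cytoplasm (adjusted p = 2.42e-07) and 1.20 ± 0.10 in the nucleus (adjusted p = 3.04e-08). The sgERH changes also passed the size limit, in comparisons where 7.15% and 8.52% of genes were called higher, and the control changes did not (13.6% and 14.4% called higher).

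The fall with sgERH was accordingly smaller under CHX. The difference between the sgERH effect with CHX and with DMSO was 0.64 ± 0.16 in the cytoplasm (edgeR, adjusted p = 0.00663) and 0.52 ± 0.14 in the nucleus (adjusted p = 0.0150). Both stayed under the log2 limit of 1, which 1.02% and 1.29% of genes passed upwards. The nuclear difference depended on the scaling: with an offset for transcript length it was 0.35 (adjusted p = 0.24). In sgERH cells with CHX, CENPE remained 1.65 (cytoplasm) and 1.50 (nucleus) below control on the log2 scale.

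Between fractions, CENPE was relatively enriched in the nucleus, by 0.86 ± 0.12 (log2) in control cells with DMSO and by 1.15 in sgERH cells with DMSO. With CHX the values were 0.91 and 1.15, in comparisons that called 31.9, 29.2, 30.6 and 27.7% of genes higher in the nucleus in that order, so only the sgERH values passed the size limit. The sgERH effect did not differ detectably between nucleus and cytoplasm, with a difference of 0.29 ± 0.18 with DMSO (edgeR adjusted p = 0.237) and 0.25 ± 0.12 with CHX (adjusted p = 0.152), where 1.78% and 3.43% of genes were called higher. The latter changed sign, to -0.21, with the length offset. Nucleus and cytoplasm of the same replicate number may come from the same culture, which the labels do not state. With the number as a block the differences were 0.31 ± 0.13 (adjusted p = 0.0784) and 0.25 ± 0.12 (adjusted p = 0.136).

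The fall in spliced reads was seen along the whole gene. Spliced reads that join the exons on either side of an intron, scaled to libraries of equal size, were lower in sgERH cells at all 48 introns in each of the 4 settings. Over the 48 introns the median log2 ratio was -2.16 in the cytoplasm with DMSO, -1.59 in the cytoplasm with CHX, -2.17 in the nucleus with DMSO and -1.39 in the nucleus with CHX. In the nucleus with DMSO the median was -1.80 for introns 1 to 16, -2.37 for introns 17 to 32 and -2.32 for introns 33 to 48. With CHX in the nucleus the same stretches stood at -1.05, -1.91 and -1.59. Within the last stretch, introns 43 to 48 stood at -1.35 to -1.15 with DMSO and at -1.16 to -0.89 with CHX. A smaller fall was thus not confined to the first 16 introns. Intron 37 had the lowest nuclear value, at -4.31 with DMSO. Reads that pass over an exon are not counted at its listed introns. Values beside the exons passed over in sgERH cells, described below, therefore reflect both RNA level and splicing. Introns of a gene share libraries and molecules, so these are descriptions and were not tested.

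**Figure D2:**
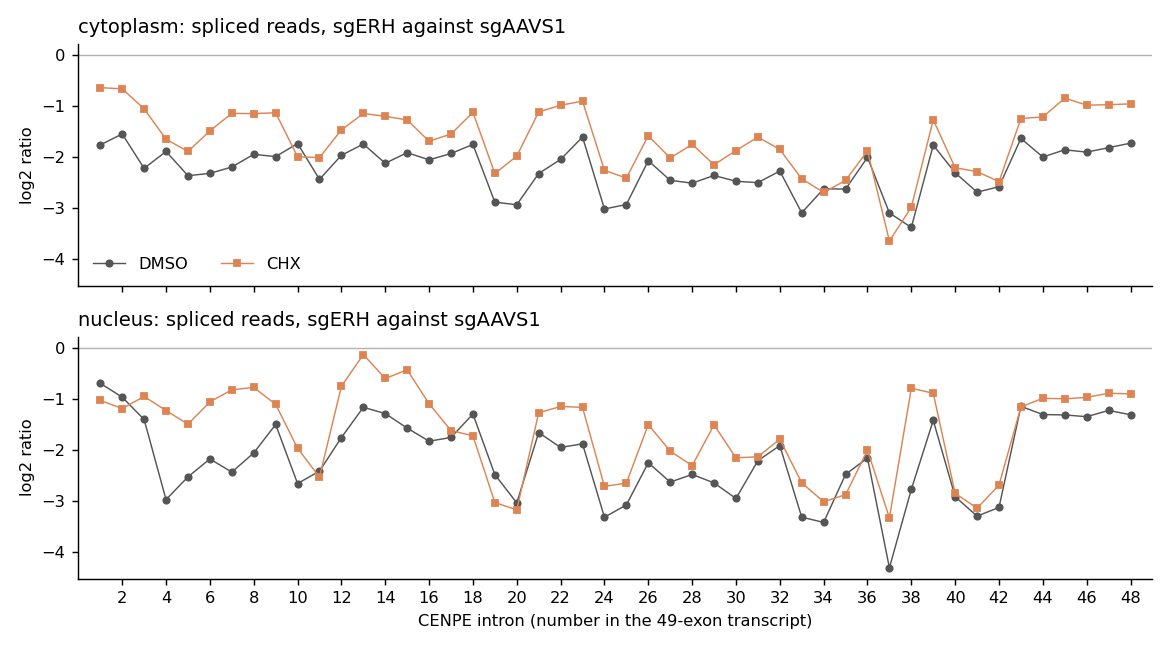
Log2 ratio of scaled spliced reads, sgERH against sgAAVS1 (means of 3 libraries each), at the 48 CENPE introns in order from the 5′ end, in the cytoplasm (top) and nucleus (bottom), with DMSO in grey and CHX in orange. Every point lies below 0, and the dip at intron 37 reaches -4.31 in nuclei with DMSO, on 0, 0 and 6 reads in the sgERH libraries.

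Coverage also leaned towards the 3′ end. In control cytoplasm with DMSO the median spliced reads of introns 33 to 48 were 2.59 times those of introns 1 to 16, and 2.37 times in sgERH cytoplasm. In nuclei with DMSO these ratios were 6.63 in control cells and 5.18 in sgERH cells, and with CHX 12.2 and 5.60. Splicing ratios near the 5′ end therefore rest on fewer reads.

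Intron retention concentrated on a run of introns in the part of the gene that encodes the coiled coil. The 3′ splice sites of the 11 introns retained more in sgERH nuclei with DMSO are shown because most of them share a base that the choice of introns did not use. Each line gives the last 24 bases of the intron and the first 3 of the next exon, read 5′ to 3′ on the minus strand of chromosome 4 (GRCh38), with the last 3 intron bases in capitals and the start and end of the window in parentheses. The last 2 lines are introns 25 and 48, which were not called, for comparison.
intron 27 (103148997 to 103149023): attctttaaatttcactcgccAAGggc
intron 28 (103147644 to 103147670): ttggtattttatgaatgtcctAAGatc
intron 29 (103146105 to 103146131): gtactgttttatgattctcttAAGatc
intron 30 (103145679 to 103145705): ttggaatttcctctaataataAAGcac
intron 31 (103145332 to 103145358): acttattttataattatgtttAAGatc
intron 32 (103144616 to 103144642): taacttactttataattttctCAGatg
intron 33 (103143404 to 103143430): atttttatttttctattgataAAGgac
intron 34 (103141906 to 103141932): tttaaaatttctctaatggtaAAGgat
intron 35 (103141102 to 103141128): atattattttatgattatcttAAGatt
intron 36 (103140412 to 103140438): tcttgatttcttctaaccataAAGgat
intron 38 (103138447 to 103138473): tttattttctttttaccaaagCAGgac
intron 25 (103151375 to 103151401): tctcaactttttttttctttcTAGacc
intron 48 (103106314 to 103106340): tgttgttttcattttctttctCAGagg

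Most human introns end in CAG or TAG. Among the 229903 listed introns that begin with GT and end with AG, 6.04% had an A before the final AG. In CENPE this held for 16 of 48 introns (33.3%), for 9 of the 11 shown (81.8%, the exceptions being introns 32 and 38) and for 6 of the other 29 numbered introns that were tested (20.7%). The base was noticed after the sequences were seen, introns of 1 gene are not independent, and no test was run. The fifth base of the intron, a G in 77.5% of all introns, was a G in 8 of the 11 (72.7%) and in 25 of the other 37 (67.6%).

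Retention was measured as the IR ratio, the depth over the intron divided by the sum of that depth and the spliced reads. It was tested as intron depth against spliced reads of the same library, so a fall of the whole gene cancels. An intron was called at an adjusted p of at most 0.05, a log2 change of at least 1 in size and an IR ratio of at least 0.05 in the higher group. In the nucleus 43 of the 51 CENPE introns had enough reads to be tested, and in the cytoplasm 12 did.

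In nuclei with DMSO, introns 27 to 36 and intron 38 were called higher in sgERH cells, which is 11 of 43, all of them upwards, where 1.21% of all tested introns were called higher and 3.43% lower. At an IR limit of 0.1 in place of 0.05, 7 of the 11 calls were left. The clearest case was intron 34 (chr4:103141909-103143247), with IR ratios of 0.00447, 0.00838 and 0.00782 in control libraries and 0.219, 0.131 and 0.245 in sgERH libraries. All sgERH libraries lay above all control libraries, and the log2 change of depth against spliced reads was 4.98 ± 0.44 (edgeR adjusted p = 7.4e-06). The read depth over intron 34 was 1.74, 2.63 and 1.88 in control libraries and 14.6, 12.5 and 17.9 in sgERH libraries, against the direction of the gene's RNA.

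Intron 30 (chr4:103145682-103145828) reached the highest ratios, at 0.0483, 0.0868 and 0.137 in control nuclei and 0.432, 0.424 and 0.632 in sgERH nuclei (log2 change 3.41 ± 0.39, adjusted p = 9.63e-05). It is a short intron of a region where CENPE-206, an annotated retained-intron transcript, also lies. Intron 28 (chr4:103147647-103148843) stood at 0.00574, 0.0127 and 0.00337 against 0.0629, 0.174 and 0.175 (4.13 ± 0.56, adjusted p = 0.000365). Introns 28, 30 and 34 thus had no overlap between the groups. Intron 29 changed by 4.04 ± 0.82 (adjusted p = 0.00745).

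Introns 27, 33 and 36 had next to no depth in the 3 control libraries, so no fold is given for them. Intron 36 (chr4:103140415-103140813) had IR ratios of at most 0.00431 in control nuclei and of 0.0429, 0.0763 and 0.117 in sgERH nuclei (adjusted p = 0.00306). Intron 33 (chr4:103143407-103144330) was at 0, 0 and 0.00307 against 0.0779, 0.0368 and 0.0787 (adjusted p = 0.00267). Intron 27 (chr4:103149000-103149117) read 0.00297, 0 and 0.0213 against 0.0667, 0.472 and 0.179 (adjusted p = 0.00802). The sgERH libraries differed widely at intron 27, yet none reached down to a control library.

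Summed over introns 27 to 36, read depth was 35.0, 36.7 and 53.8 in control nuclei and 99.5, 146 and 250 in sgERH nuclei with DMSO. The 11 introns are short, with lengths of 118 to 1339 nt (median 645) against 79 to 11479 nt (median 1674) for the other 32 tested. Their GC content was about that of the others (medians 33.8% and 32.9%). Read on in frame from the exon before, each of the 11 meets a stop codon, which ends 15 to 204 nt into the intron (median 66). So do 27 of the 29 other numbered introns tested, after a median of 27 nt. The last intron, 48, had an IR ratio of 0.172 in control and 0.244 in sgERH nuclei (group means) and was not called.

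**Figure D3:**
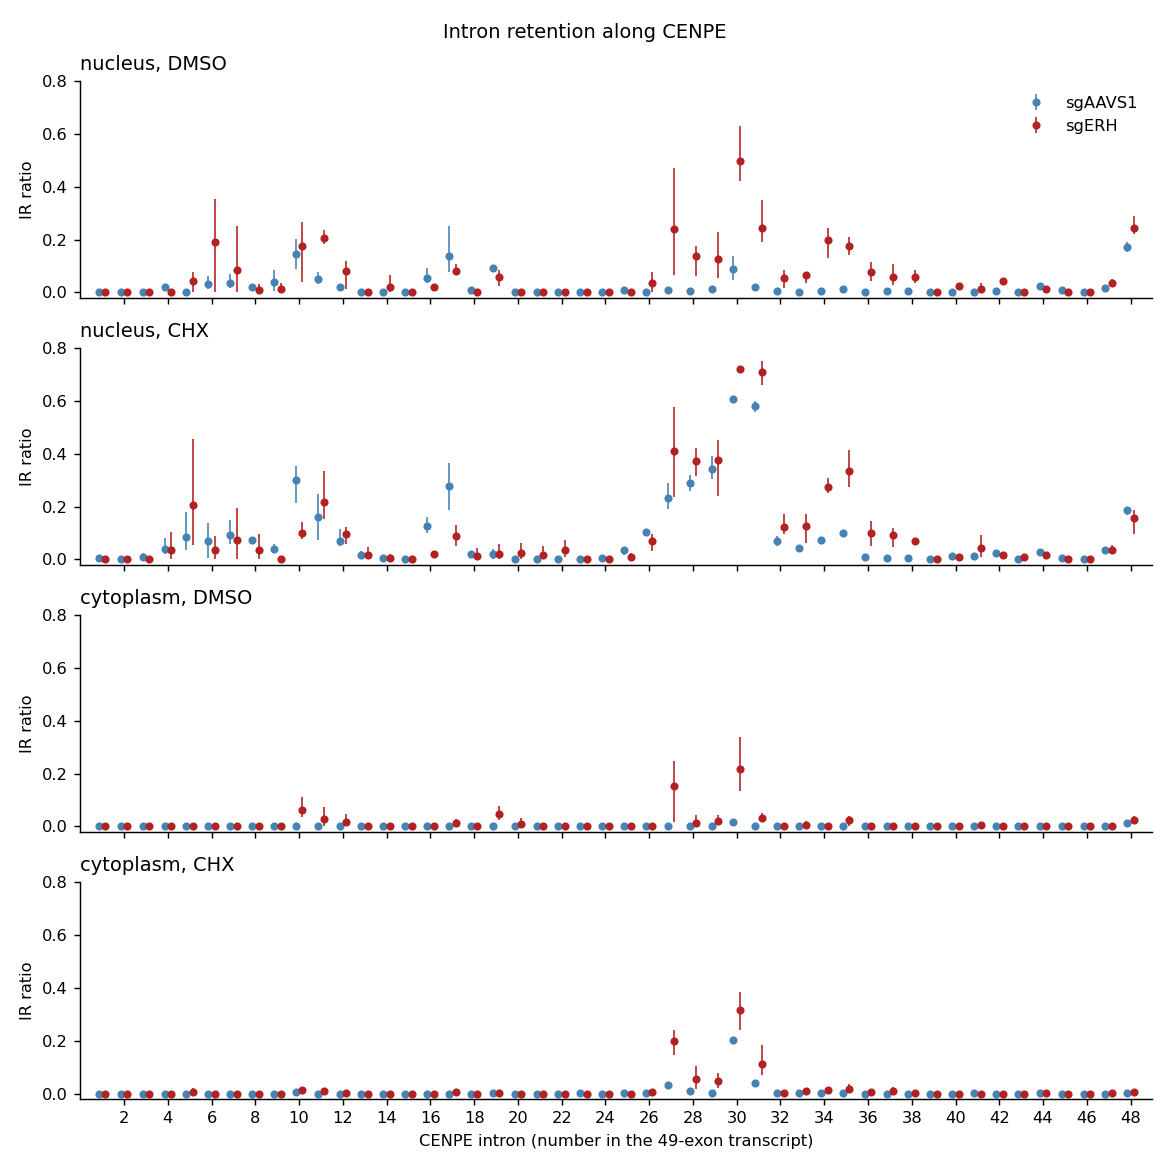
IR ratio of the 48 numbered CENPE introns (x axis) in the nucleus and cytoplasm with DMSO or CHX; points are means of 3 libraries, lines the range, blue sgAAVS1 and red sgERH. In nuclei with DMSO the red points rise over introns 27 to 36, up to 0.632 in single libraries at intron 30; with CHX the blue points rise over introns 26 to 32 too.

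CHX by itself raised retention of the same stretch in control nuclei. There 9 introns were called higher with CHX than with DMSO (26 to 32, 34 and 35), where 5.57% of introns were called higher, and intron 19 was called lower (-2.62, with 4.70% called lower). Intron 31 (chr4:103145335-103145522) went from 0.0330, 0.00824 and 0.0169 to 0.585, 0.599 and 0.559 (6.09 ± 0.40 on the log2 scale). Intron 28 changed by 5.40 ± 0.44 and intron 30 by 4.00 ± 0.35, the latter to 0.620, 0.592 and 0.607. Summed over introns 27 to 36, control nuclei held a depth of 877, 732 and 874 with CHX, and sgERH nuclei 676, 583 and 635.

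In sgERH nuclei, which started higher, 5 introns were called higher with CHX (28, 29, 30, 31 and 35), where 1.52% of introns were called higher. The count was 3 without replicate 1 and 2 without replicate 2 of the sgERH nuclei with DMSO. Intron 31 had the largest change of these, 2.87 ± 0.36. The sgERH effect was smaller with CHX than with DMSO at introns 28 (difference -3.59 ± 0.65, edgeR adjusted p = 0.0321), 30 (-2.67 ± 0.52, adjusted p = 0.0418), 31 (-3.22 ± 0.57, adjusted p = 0.0307) and 34 (-2.72 ± 0.53, adjusted p = 0.0433), where 0.314% of introns had a lower effect. These 4 calls lie close to the limit. They all remained only without replicate 3 of sgERH nuclei with CHX, and leaving out any other nuclear library left 0 to 2 of them.

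With CHX, 7 introns were called higher in sgERH than in control nuclei (33 to 38 and the intron from exon 37 to 39), where 0.752% of introns were called higher. Intron 34 had IR ratios of 0.0775, 0.0705 and 0.0684 in control nuclei and of 0.258, 0.250 and 0.309 in sgERH nuclei (2.25 ± 0.26). Introns 30 and 31 stood at means of 0.606 and 0.581 in control nuclei and of 0.721 and 0.709 in sgERH nuclei, and were not called. Of these 7, introns 33 to 36 and 38 were also called with DMSO, while intron 37 and the intron from exon 37 to 39 were not.

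Another 4 introns were called lower in sgERH nuclei with CHX, namely 10, 16, 17 and the one from exon 16 to 18, against 19.7% of all introns called lower there. Intron 10 (chr4:103182892-103183200) was at 0.355, 0.339 and 0.212 in control nuclei and at 0.0762, 0.0846 and 0.143 in sgERH nuclei. Intron 17 averaged 0.276 and 0.0875 in the same order. At the limit of 0.1 on the IR ratio, 6 of these 11 calls of either direction were left.

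In the cytoplasm 3 of 12 tested introns were called higher in sgERH cells with DMSO (10, 27 and 30), where 1.47% of introns were called higher, and 5 passed with no limit on the IR ratio. Intron 30 was at 0.0156, 0.0268 and 0.00997 in control libraries and at 0.183, 0.136 and 0.338 in sgERH libraries (3.81 ± 0.51, adjusted p = 0.000431). Intron 27 was at 0 in all control libraries and at 0.186, 0.0186 and 0.250 in sgERH libraries (adjusted p = 0.00214). Intron 10 was likewise at 0 in control libraries, and at 0.111, 0.0388 and 0.0348 with sgERH (adjusted p = 0.0304). It met the depth limit for testing through the sgERH groups alone, so its call is given as a description. Reads over introns 10, 27 and 30 were thus present in the cytoplasmic fraction of sgERH cells. That fraction also held more of the nuclear RNA MALAT1, at 0.0305 to 0.0327% of counts in the sgERH and 0.0176 to 0.0219% in the control libraries with DMSO, against 0.383 to 0.606% in nuclei with DMSO. Mitochondrial mRNAs moved the same way in the cytoplasm, from 3.29 to 3.78% in control to 5.15 to 6.22% in sgERH libraries with DMSO. The part of nuclear RNA carried into the cytoplasmic fraction in these retention values was not tested.

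With CHX, intron 27 alone was called in the cytoplasm (0.0306, 0.0277 and 0.0374 against 0.212, 0.146 and 0.242, a change of 2.85 ± 0.43, adjusted p = 0.00407), where 0.599% of introns were called higher. Without replicate 2 of sgERH cytoplasm with CHX there were 3 calls. In control cytoplasm CHX raised intron 30 from a mean of 0.0175 to a mean of 0.201 (3.71 ± 0.37, adjusted p = 3.71e-05), in a comparison with 0.944% called higher.

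Beside retention, sgERH cells held larger shares of spliced reads that use a CENPE exon end but none of its listed introns. For each intron the files give the reads spliced at its 5′ end, at its 3′ end and at both, so reads that use an end but not the listed intron can be counted. This measure was added after the data were seen. An end was called when such reads rose against the listed ones (edgeR, adjusted p at most 0.05, log2 change of at least 1, at least 5% of reads in the higher group). In the cytoplasm with DMSO, 9 of 53 CENPE ends were called higher in sgERH cells, where 0.861% of all tested ends were, and with CHX 10 were, where 0.694% were. In the nucleus 6 of 54 were called with DMSO (0.128% of all) and 5 with CHX (0.141% of all). All calls were upwards. A lower call needed at least 5% unlisted reads in control cells, and many ends had next to none there. The 3′ site of exon 21 had 0 in control cytoplasm and control nuclei with DMSO. Such ends entered the test through other groups, so the direction of the calls was largely set by these limits.

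The nuclear counts are fragile. With any single library left out, 1 to 2 of the 6 and 0 to 1 of the 5 were left, whereas 5 to 8 of the 9 and 7 to 9 of the 10 cytoplasmic calls were left. The low value of 5 came without replicate 2 of control cytoplasm with DMSO. The 3′ splice site of exon 43 and the 5′ splice site of exon 40 were called in all 4 settings. For exon 43 the adjusted p was 3.35e-05 and 0.000383 in the cytoplasm (DMSO, CHX) and 0.00221 and 0.0165 in the nucleus. The 3′ splice site of exon 21 was also called in all 4 settings (adjusted p = 0.00147, 0.000373, 0.0383 and 0.0270 in that order).

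The files do not name the partner of such a read. Where the 5′ site of 1 exon and the 3′ site of a later exon gained like numbers of unlisted reads, the pair was taken as exon skipping, and the smaller of both numbers was set against the listed reads at the exon. Over the 24 libraries the 3′ sites held 77.8 to 102 unlisted reads per 100 at the 5′ sites of the 6 pairs. The lowest ratio was that of exon 34, whose ends gained unlike numbers in the sgERH groups. Skipping of exons 41 and 42, a loss of 402 nt or 134 codons in frame, was matched by no read in the control libraries with DMSO, in either fraction. The 5′ site of exon 40 held 15 (cytoplasm) and 44 (nucleus) unlisted reads there, and the 3′ site of exon 43 held 0. By the smaller number, skipping took 38.6, 40.0 and 43.2% of reads in sgERH cytoplasm and 43.4, 60.4 and 79.5% in sgERH nuclei. With CHX it stood at 3.11, 2.95 and 2.78% in control cytoplasm against 56.1, 45.1 and 62.7% with sgERH, and the nuclear libraries read 3.51, 0.960 and 4.73% against 74.3, 74.0 and 68.9%. In each setting every sgERH library lay far above every control library.

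The 5′ splice site used after exon 40 is shown beside the retained introns 30 and 34 and intron 48, with 3 exon bases and then 9 intron bases. Capitals mark the first 2 intron bases and the fifth, the latter a G at most introns.
intron 40 (103136132 to 103136143): aagGTacCatct
intron 34 (103143239 to 103143250): cagGTatTttat
intron 30 (103145820 to 103145831): aaaGTagGtttc
intron 48: cagGTaaGtaaa
The intron after exon 40 and intron 34 have a C and a T in the place of the G. The 5′ site of exon 40 is used whether exons 41 and 42 are kept or passed over, so its bases alone cannot tell these outcomes apart. Among the sites passed over, intron 40 ends in AAG. The fifth base is an A in intron 41 and a G in intron 42. The G was present in 8 of the 11 introns called higher in sgERH nuclei with DMSO and in 33 of the 48 numbered introns. A link between this base and skipping or retention was not tested.

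By the smaller number, exon 20 (166 nt) was passed over in no control library with DMSO. The 5′ site of exon 19 held 4 (cytoplasm) and 13 (nucleus) unlisted reads there, and the 3′ site of exon 21 held 0. In sgERH cells the share was 11.4, 42.3 and 46.5% in the cytoplasm and 64.2, 39.5 and 31.0% in the nucleus. With CHX it averaged 52.6% in sgERH cytoplasm and 73.3% in sgERH nuclei, against 0.283% and 0.691% in control cells. The length of exon 20 is not a multiple of 3, and the joined reading frame would meet a stop after 18 codons. Exon 11 (130 nt) was passed over in 0% of reads in control and 15.1% in sgERH cytoplasm with DMSO, and in 3.44% and 57.3% with CHX (group means). Its frame would stop after 8 codons, and only the cytoplasm with CHX passed the test at both ends (adjusted p = 0.0173 and 0.0163).

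Exon 25 (204 nt, 68 codons) was also passed over in control cells. In the cytoplasm with DMSO the share was 29.1, 17.4 and 16.7% in control and 65.3, 52.1 and 72.3% in sgERH libraries, and in the nucleus 8.70, 16.2 and 19.4% against 66.1, 69.1 and 67.1%. Control nuclei with CHX reached 46.0, 61.7 and 55.6%. Only its 5′ partner, the 5′ site of exon 24, in the cytoplasm with DMSO passed the test (adjusted p = 0.0472). For exon 29 (291 nt, 97 codons) control cytoplasm itself changed with CHX, from 1.07% to 12.4% (means), and both its ends were called there (5′ site of exon 28, adjusted p = 0.00788, and 3′ site of exon 30, adjusted p = 0.0328), where 3.34% of ends were called higher. Leaving out replicate 1 or 2 with DMSO, or any replicate with CHX, left 1 of these 2 calls. At exon 34 (159 nt, 53 codons) the ends matched in control but not in sgERH cells. The 5′ site of exon 33 and the 3′ site of exon 35 held 142 and 138 unlisted reads in control cytoplasm with DMSO and 72 and 38 in sgERH cytoplasm. In sgERH nuclei with DMSO they held 177 and 81. Reads that pass over exon 34 can thus be only part of those at the 5′ site in sgERH cells. By the smaller number, the share was 13.9 to 18.3% in control and 13.1 to 37.9% in sgERH cytoplasm, with overlap. In nuclei with DMSO it was 8.71 to 13.4% and 29.9 to 52.6%, without overlap. Neither end was called for sgERH in any of the 4 settings.

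**Figure D4:**
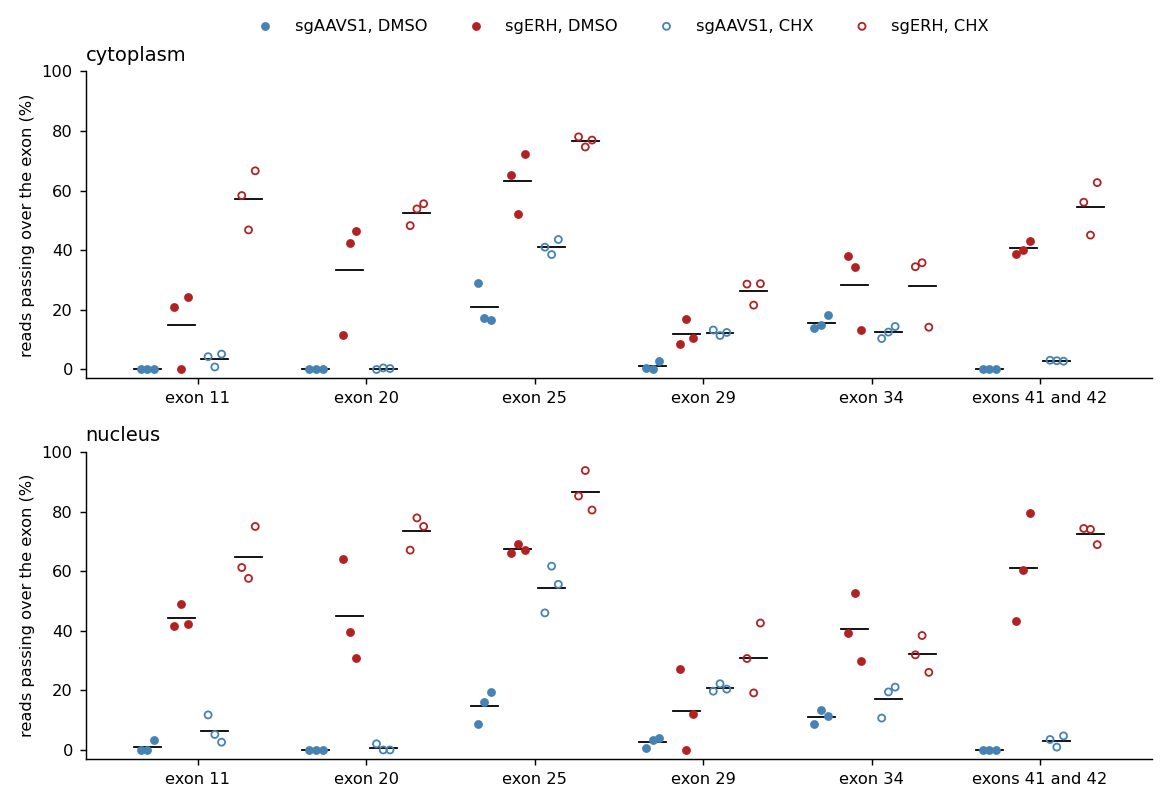
Reads passing over CENPE exons (% of matched unlisted plus listed reads) in the cytoplasm (top) and nucleus (bottom); each point is 1 library, filled DMSO, open CHX, blue sgAAVS1, red sgERH. For exons 20 and for 41 with 42, control libraries lie between 0 and 4.73% and sgERH libraries between 11.4 and 79.5%.

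Much of the gene can lose exons without a frame shift. Of 49 exons, 32 have a length that is a multiple of 3, and exons 22 to 44, 23 in a row, all do. Over the whole gene 7 exons are 159 nt long and 4 are 291 nt long. The 11 retained introns and 4 of the 6 pairs described above, at exons 25, 29, 34 and 41 with 42, lie within this stretch.

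Of the 6 annotated transcripts, CENPE-201 (ENST00000265148, 49 exons, 2701 residues) and CENPE-202 (ENST00000380026, 47 exons, 2580 residues) took nearly all counts, and CENPE-205 (ENST00000514974, 7 exons) at most 1.14% of a group. CENPE-203, CENPE-204 and CENPE-206 stayed at or under 0.224% and did not pass the filter on low counts. Both long transcripts were called lower in sgERH cells in all 4 settings, where 2.01, 0.949, 1.03 and 3.27% of transcripts were (cytoplasm with DMSO, cytoplasm with CHX, nucleus with DMSO, nucleus with CHX). CENPE-201 changed by -2.46 ± 0.12, -1.91 ± 0.12, -2.47 ± 0.23 and -1.27 ± 0.22 in that order. CENPE-202 changed by -2.15 ± 0.21, -1.48 ± 0.21, -1.56 ± 0.14 and -1.42 ± 0.14. CENPE-205, which lacks exon 5, had log2 values of 1.04 to 3.36 that did not pass the test (adjusted p from 0.200 to 0.600).

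CENPE-201 has exons 17 and 38, which CENPE-202 lacks. Its share of CENPE counts was 54.0 ± 2.00% (SD, n = 3) in control cytoplasm with DMSO and 48.6 ± 5.90% with sgERH. In nuclei with DMSO it was 48.3 ± 1.16% and 33.0 ± 2.95%, with no overlap, and in nuclei with CHX 22.5 ± 5.52% and 24.7 ± 4.04%. Exact permutation tests of 3 libraries against 3 cannot give a two-sided p under 0.1, so none of the 8 comparisons of this share could pass (adjusted p from 0.2 to 0.6).

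Spliced reads gave another picture of exon 38 (291 nt, codons 1972 to 2068). It was included in 9.31 ± 0.602% of reads in control cytoplasm with DMSO and in 3.12 ± 1.27% with sgERH. In the other settings the means were 5.05% and 1.01% (cytoplasm with CHX), 8.93% and 2.46% (nucleus with DMSO) and 0.742% and 0.715% (nucleus with CHX), control first. So most of these reads lacked exon 38 in all 8 groups, although 22.5 to 54.0% of counts went to the transcript that holds it. Reads without the exon exceeded those on the listed intron from exon 37 to 39. They were 322 against 153 in replicate 1 of control cytoplasm with DMSO, and 708 against 267 in replicate 1 of control nuclei with CHX. The surplus joined no listed intron, and its partner is not named. On the listed intron alone the inclusion shares would be higher, though its reads outnumbered those with exon 38 in every library. The exact permutation p was 0.1, the lowest possible, in the first 3 settings and 0.9 in the last (0.133 and 0.9 adjusted over 8 comparisons).

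The 3′ splice site before exon 39 is double, with a pair of sites 3 nt apart, which the window below shows with both triplets in capitals (chr4:103138444-103138470).
exon 39: attttctttttaccaAAGCAGgaccga
The listed intron from exon 37 to 39 uses the upstream site and intron 38 the downstream one. The upstream site was among the ends called in sgERH nuclei with CHX (adjusted p = 0.0323).

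Exon 5 (120 nt, codons 120 to 159, within the N-terminal part where the motor lies) was nearly always kept in control cells. In the cytoplasm with DMSO it was in 97.0, 96.7 and 100% of spliced reads, and in sgERH libraries in 61.4, 74.5 and 69.6%. With CHX these values were 96.4, 97.8 and 95.0% against 57.4, 63.5 and 48.8%. Nuclear means were 94.6 ± 5.86% against 54.0 ± 26.6% with DMSO and 97.7 ± 2.25% against 67.3 ± 34.1% with CHX, the latter from libraries that overlapped. The exact permutation p was 0.1 (0.267 adjusted) in the first 3 settings and 0.4 (0.533 adjusted) in nuclei with CHX. Exon 17 (75 nt, codons 550 to 574) was in 80.0% and 75.7% of reads in the cytoplasm with DMSO, and in 70.5 ± 1.97% and 53.5 ± 3.12% with CHX. In nuclei it averaged 74.8% and 66.2% with DMSO, with overlap, and 83.4 ± 5.77% and 41.3 ± 4.87% with CHX, without overlap (exact permutation p = 0.1, adjusted 0.2).

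**Figure D5:**
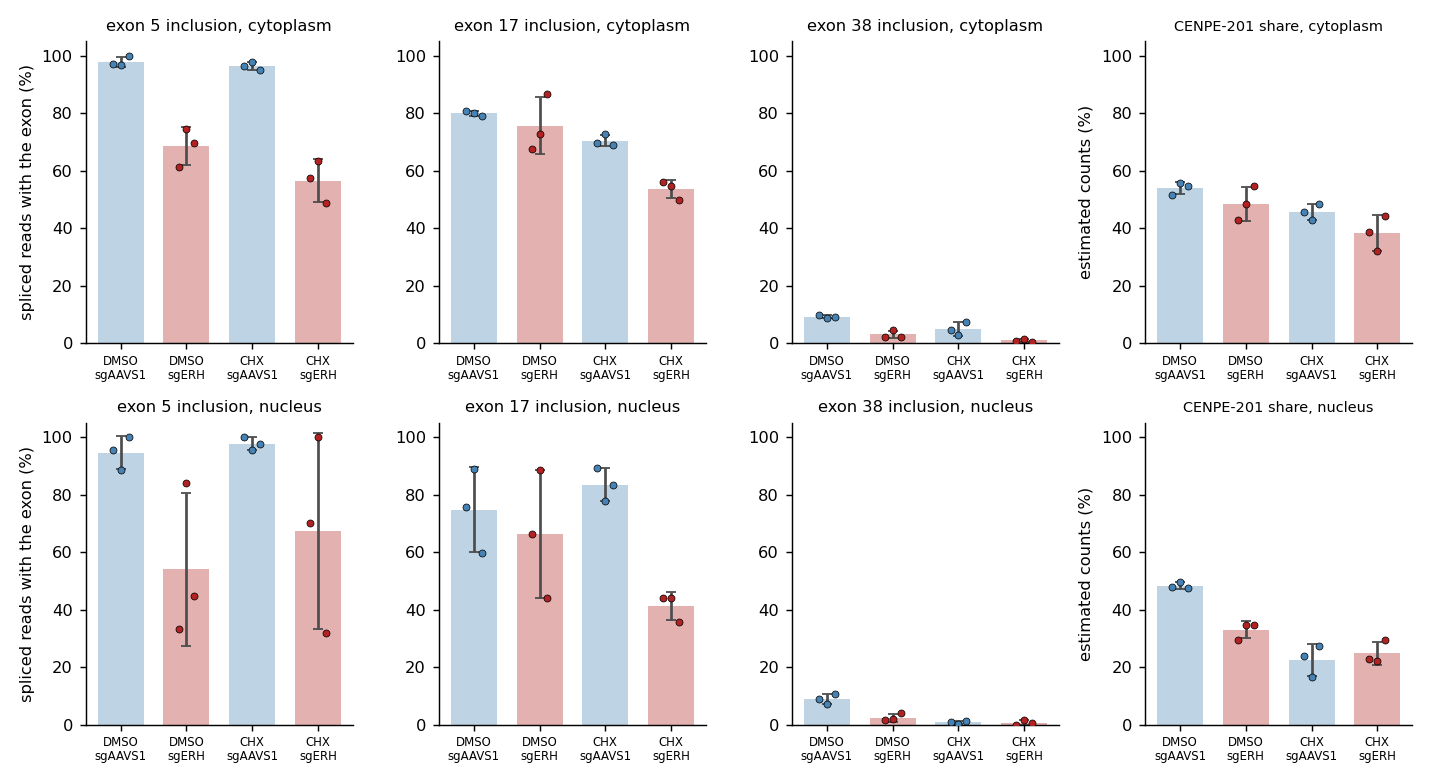
Inclusion of exons 5, 17 and 38 (% of spliced reads) and share of CENPE-201 in CENPE counts (%) in the cytoplasm (top) and nucleus (bottom); bars are means of 3 libraries, error bars the SD, points libraries, blue sgAAVS1, red sgERH. Exon 5 stays at 88.3% or above in control libraries. Exon 38 averages at most 9.31% in any group, with unlisted reads counted among those without it.

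Some of the genes that work with CENP-E were lower too. Of 23 partners and regulators tested, 4 were called lower in the cytoplasm and 4 in the nucleus with DMSO, 1 and 3 with CHX in the same order, where 2.16, 1.73, 1.43 and 3.68% of all genes tested were called lower. All of these calls were downwards, as in the 4 lists that follow, while 9.30, 5.79, 4.77 and 5.29% of all genes were called higher (cytoplasm with DMSO, cytoplasm with CHX, nucleus with DMSO, nucleus with CHX). Their median log2 change was -0.67, -0.43, -0.56 and -0.34 in that order of settings, while the median of all genes tested lay between 0.01 and 0.04. BUB1B, whose product BUBR1 binds CENP-E at the kinetochore, changed by -1.48 ± 0.06 in the cytoplasm and -1.19 ± 0.07 in the nucleus with DMSO. TTK, the checkpoint kinase MPS1, changed by -1.34 in the cytoplasm, and NUF2, a subunit of the microtubule-binding NDC80 complex, by -1.38 in the nucleus. The checkpoint kinase BUB1 changed by -0.92 and -0.94, under the limit of 1, and CENPF, another large kinetochore protein, by -0.57 and -0.35.

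Among 16 outer kinetochore genes, 5 and 2 were called lower with DMSO (cytoplasm, nucleus) and 2 and 3 with CHX, in the comparisons with 2.16, 1.73, 1.43 and 3.68% of all genes called lower. Their medians were -0.78, -0.56, -0.58 and -0.37. SPC24 (-1.08) and SPC25 (-1.04), the NDC80 complex's inner end, had the largest falls in the cytoplasm, and NUF2 and SKA3 (-1.24) in the nucleus. Among 21 inner kinetochore genes, 2 and 3 were called lower with DMSO and 1 and 0 with CHX, beside the same shares of all genes (medians -0.52, -0.45, -0.37 and -0.53). They were led by HJURP, the CENP-A chaperone (-1.07), and CENPI (-1.02) in the cytoplasm, and by CENPU (-1.21) and HJURP (-1.19) in the nucleus. For the count of 0, 15 of the 21 had an adjusted p under 0.05 without the size limit. That number is given without direction.

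Phase markers of the cell cycle moved as well. Of 20 G2/M genes, 6 and 4 were called lower with DMSO (cytoplasm, nucleus; 2.16 and 1.73% of all genes) and 2 and 2 with CHX (1.43 and 3.68% of all genes), with medians of -0.85, -0.71, -0.62 and -0.38. TOP2A, the mitotic topoisomerase, changed by -1.31 and -1.32, and GTSE1, a microtubule-binding G2 protein, by -1.17 and -1.36 (cytoplasm, nucleus). Of 18 G1/S genes, 6 and 0 were called lower with DMSO and 2 and 0 with CHX, beside those same shares of all genes, with medians of -0.90, -0.44, -0.57 and -0.07. GINS2 (-1.31) and the replicative helicase subunit MCM5 (-1.25) led these in the cytoplasm. For the counts of 0 in nuclei, 15 and 10 of the 18 had an adjusted p under 0.05 without the size limit. Those numbers are given without direction. By their medians, markers of both phases were lower beside CENPE, except that G1/S genes hardly moved in nuclei with CHX. There the median was -0.07, against 0.005 for all genes tested. The part of phase in the fall of CENPE was not tested. No member of the 5 lists had a lower log2 change than CENPE in any of the 4 comparisons. This holds for the lists alone: DLGAP5, a spindle protein outside them, changed by -2.13 in nuclei with DMSO, against -2.02 for CENPE.

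Over the 24 libraries, the genes whose log2 CPM followed CENPE most closely among 11201 compared were SMC4, a condensin subunit (Pearson r = 0.977), C5 (0.962), the DNA repair enzyme PARP2 (0.961), RFC4 of the clamp loader (0.948) and DNAAF11 (0.946). Within the 12 cytoplasmic libraries they were DLGAP5, a spindle protein (0.995), PPIE (0.994), GCFC2 (0.994) and the kinesins KIF15 (0.994) and KIF4A (0.992). Within the 12 nuclear libraries they were PTK2 (0.991), TOP2A (0.990), AKAP9 (0.990), KIF23 (0.983) and PARP2 (0.983). The libraries of a group share guide and treatment, so these values are mostly set by the 8 groups and describe likeness alone.

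The genes next to CENPE on chromosome 4 changed far less. BDH2, on the 3′ side, had log2 changes of 0.07 and -0.29 with DMSO (cytoplasm, nucleus) and 0.12 and -0.37 with CHX, the nuclear ones with adjusted p of 0.0260 and 0.00487. SLC9B2, beyond it, changed by 0.28 and 0.32 with DMSO and by 0.30 and 0.32 with CHX. None of these values reached the size limit, so none was called. On the 5′ side TACR3 had too few counts to be tested, and CXXC4 was tested in the cytoplasm alone, at 0.03 with DMSO and -0.52 with CHX.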

How the data were processed

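CENPE and the gene, intron and exon lists were chosen with earlier results of these data known. The authors trimmed reads with fastp, removed rRNA reads and aligned and quantified with STAR and salmon (GRCh38, Ensembl annotation). They deposited estimated counts and TPM values per transcript, which were summed per gene, the counts being rounded. Per library they also deposited intron tables with an IR ratio (a fraction), intron coverage depth (a signal) and counts of spliced and boundary reads. Genes, transcripts and introns were tested over whole tables with edgeR 4.0.16 in R 4.3.3 (quasi-likelihood, TMM, Benjamini-Hochberg), 1 fit of 12 libraries per fraction, and comparisons between fractions per treatment. Genes and transcripts passed edgeR's filter on low counts. Introns needed a mean of 10 reads and a depth of 1 in some group. Intron depth was tested against spliced reads of the same library, the larger of both sides. Shares were compared by two-sided exact permutation tests. The scripts were tested on simulated data. Named genes were the list members with the 2 largest called changes in each DMSO comparison, BUB1, BUB1B, CENPF, the neighbours and the 5 genes most like CENPE (mean of at least 5 CPM). Named introns were the 6 with the largest called change in nuclei with DMSO and those called in the cytoplasm. Other introns, exons 5, 17 and 38, the skipped exons and the splice-site bases were chosen after their values were seen. The replicates are labelled as biological without further detail, so p-values measure only the spread between these libraries. Whether the transcript counts used strand is not given in the sources used here.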

Additional observations from a re-analysis of the deposited data

Results flagged for a closer look

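The sgERH effect on CENPE differed between CHX and DMSO by 0.64 (log2) in the cytoplasm and by 0.52 in the nucleus, in edgeR's test of the difference itself. CENPE was lower with sgERH in both treatments, and less so with CHX. With an offset for transcript length the nuclear difference was 0.35 (adjusted p = 0.24).

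The sgERH effect on retention differed between CHX and DMSO in the nucleus at intron 28 (-3.59 on the log2 scale), intron 30 (-2.67), intron 31 (-3.22) and intron 34 (-2.72), by the same kind of test. These calls were not stable: 0 to 4 of the introns were called with single libraries left out, 0 with a replicate block and 1 with reads spliced at both ends. At all 4 introns the control nuclei with CHX had higher IR ratios than the control nuclei with DMSO.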

How the results depend on the processing

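The log2 changes of CENPE kept their direction under every alternative run, except that the difference of the sgERH effect between nucleus and cytoplasm with CHX became -0.21 with an offset for transcript length. The size of the fall with sgERH was smaller in TPM than in CPM. In cytoplasm with CHX the group means were 141 and 45.1 CPM (control, sgERH), but 21.6 and 10.3 TPM. The nuclear enrichment with CHX crossed the size limit of 1 in control cells with DESeq2 size factors (1.08), DESeq2 (1.08) and the length offset (1.03), and fell below it in sgERH cells with the length offset (0.82). The cause was not tested.

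With an IR limit of 0.1, 7 introns were called for sgERH in nuclei with DMSO and 6 with CHX, by construction fewer. With no IR limit there were 5 in the cytoplasm with DMSO, 2 with CHX, and 3 for CHX in control cytoplasm. DESeq2 called 2 for CHX in sgERH nuclei, and it was not run for differences of effects. With reads spliced at both ends, 2 introns were called for sgERH in the cytoplasm with CHX and 1 for the nuclear difference. The cause was not tested.

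With single libraries left out, the gene's sgERH change ranged from -2.43 to -2.18 (cytoplasm with DMSO), -1.69 to -1.56 (cytoplasm with CHX), -2.15 to -1.92 (nucleus with DMSO) and -1.57 to -1.46 (nucleus with CHX). The intron counts ranged from 8 to 12 and 9 to 12 for sgERH in nuclei (DMSO, CHX), 9 to 11 and 2 to 5 for CHX in control and sgERH nuclei, 0 to 4 for the nuclear difference, and 2 to 3 and 1 to 3 in the cytoplasm (DMSO, CHX). Splice end counts ranged from 1 to 2 and 0 to 1 in nuclei, 5 to 8 and 7 to 9 in the cytoplasm and 1 to 2 for CHX in control cytoplasm. Where a group was left with 2 libraries the spread was pooled over all groups of the fit.

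Libraries of the same replicate number did not all deviate together (correlations of -0.24 to 0.26 in the cytoplasm, -0.23 to 0.18 in the nucleus and -0.021 to 0.413 between fractions, where replicate 3 had 0.130 to 0.317), so the numbers were not taken as a pairing. A replicate block left no call of the gene or its transcripts changed. With the block, 2 introns were called in the cytoplasm with CHX, 0 for the nuclear difference, and 3 splice ends in nuclei with DMSO.

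Depth limits the intron and exon values: nuclear control libraries with DMSO often had single reads over an intron, and only 12 introns could be tested in the cytoplasm.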
